A study of Mus musculus with 19 samples.

Results

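The transcripts of 10 genes that cells raise under heat or cold were followed in the suprarenal abdominal aorta (SRA) of 19 mice: 8 heat shock genes (Hspa1a, Hspa1b, Hsph1, Dnajb1, Hsp90aa1, Hspa8, Hspb1 and Bag3) and 2 cold-inducible genes (Cirbp and Rbm3). They were picked by gene symbol out of a table of 20408 genes, and all 10 passed the filter on low values that left 14845 genes for testing. The list was drawn up with results from these same mice known, and the values that led to each choice are not recorded. The counts and p-values given for the 10 genes therefore describe them and are no independent evidence. The mice were males on regular chow, 8 weeks old at the start of tamoxifen, on a C57BL/6J background, and all lacked ApoE and carried SMA-CreERT2, a tamoxifen-inducible Cre driven by the smooth muscle actin promoter Acta2. IKKβ-/- mice carried 2 floxed Ikbkb alleles (SMA-CreERT2 Ikkβ Flox/Flox ApoE-/-) and their IKKβ+/+ littermates none (SMA-CreERT2 ApoE-/-). After tamoxifen and a rest, osmotic pumps placed under isoflurane anesthesia, on a heated platform and with carprofen as analgesic, delivered saline or angiotensin II (Ang II) under the skin for 24 h. The labels give the dose of Ang II as 500 to 1000 ng/min/kg, and the methods of the study give the upper of these. The groups were 5 saline-infused and 5 Ang II-treated IKKβ+/+ mice, and 4 saline-infused and 5 Ang II-treated IKKβ-/- mice.

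Heat shock proteins are chaperones that bind unfolded proteins and help them refold. Their genes are switched on by heat shock factor 1 (HSF1), which trimerizes when unfolded proteins draw chaperones away from it and then binds heat shock elements, inverted repeats of the unit GAA upstream of the genes. HSP70 proteins take up and release clients in a cycle that J-domain proteins start and nucleotide exchange factors end, small heat shock proteins hold clients, and BAG3 links HSP70 to small heat shock proteins and to autophagy in contractile cells. CIRBP and RBM3 are RNA-binding proteins whose transcripts rise on mild cooling and fall on warming.

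The stretches of 250 bases before the transcription start are shown for 4 heat shock genes because they hold matches to a 2-unit heat shock element. They also show how alike the 2 inducible HSP70 genes are. They are RefSeq sequences of GRCm38.p6, 5′ to 3′ on the strand of the gene, with matches to a 2-unit heat shock element in capitals. For Cirbp, a short stretch is shown with the mild cold element TCCCCGCC in capitals.
Hspa1a (chr17:34972157-34972406, minus strand): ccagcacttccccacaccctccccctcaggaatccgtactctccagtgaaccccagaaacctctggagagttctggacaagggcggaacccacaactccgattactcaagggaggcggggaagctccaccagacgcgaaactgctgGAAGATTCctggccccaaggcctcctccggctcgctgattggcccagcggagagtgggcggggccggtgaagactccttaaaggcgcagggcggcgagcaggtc
Hspa1b (chr17:34959239-34959488, minus strand): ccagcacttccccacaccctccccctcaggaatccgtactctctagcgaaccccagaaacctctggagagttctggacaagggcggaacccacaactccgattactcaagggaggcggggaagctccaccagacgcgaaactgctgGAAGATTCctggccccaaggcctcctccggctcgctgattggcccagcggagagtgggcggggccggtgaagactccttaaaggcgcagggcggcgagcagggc
Hsph1 (chr5:149636337-149636586, minus strand): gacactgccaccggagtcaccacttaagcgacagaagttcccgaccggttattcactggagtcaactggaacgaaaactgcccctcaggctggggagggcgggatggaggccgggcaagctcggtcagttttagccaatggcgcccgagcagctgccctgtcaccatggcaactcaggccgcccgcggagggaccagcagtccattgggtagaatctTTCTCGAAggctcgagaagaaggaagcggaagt
Hspb1 (chr5:135887669-135887918, plus strand): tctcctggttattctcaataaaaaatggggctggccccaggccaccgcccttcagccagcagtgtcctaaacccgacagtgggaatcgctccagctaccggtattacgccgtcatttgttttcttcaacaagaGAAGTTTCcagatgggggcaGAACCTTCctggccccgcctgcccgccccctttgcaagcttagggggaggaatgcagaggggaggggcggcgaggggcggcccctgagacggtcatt
Cirbp (chr10:80167589-80167609, plus strand): ctgTCCCCGCCtcctagtcgc

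Promoters of 7 of the 10 genes were matched by symbol, 10 promoters in all. The 2-unit element was searched as GAANNTTC and TTCNNGAA, each of which reads the same on both strands, and no 2 matches in these promoters overlapped. It was found upstream of 4 of the 6 heat shock genes with a promoter, at 104 to 97 bases before the start in both Hspa1a and Hspa1b, at 33 to 26 bases in Hsph1 and at 2 places in Hspb1, at 117 to 110 and at 97 to 90 bases. Counted by promoter, 5 of the 8 promoters of heat shock genes held it. Of all 32851 promoters, 12.8% held at least 1 such element in the same window and 1.46% held at least 2. Dnajb1 and Bag3 had no match in this window, and an element with 3 adjoining units was found in 0 of the 8 promoters of heat shock genes, against 0.466% of all promoters. The upstream stretches of Hspa1a and Hspa1b had the same base at 247 of 250 positions (98.8%), so their matches are not separate finds. The mild cold element, searched on both strands, lay in 1 of 2 Cirbp promoters, and 4.64% of all promoters held it, those of Hspa1a, Hspa1b and Bag3 among them. These matches describe letters and show no binding.

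The data collected were normalized counts, that is reads per gene after scaling each library by its size factor. The libraries held 11382573 to 19906694 reads on genes. Ikbkb, the deleted gene, had 673 ± 78.6 normalized counts (SD, n = 5) in saline-infused and 726 ± 46.3 (n = 5) in Ang II-treated IKKβ+/+ mice, and 515 ± 74.3 (n = 4) and 548 ± 87.9 (n = 5) in the IKKβ-/- groups, in tissue that also holds cells in which the Cre is not active. The 7 smooth muscle markers were present in every mouse, with a summed level of 305200 to 635000 normalized counts. Adrenal cortex was near absent, with 1 of its 5 markers in the table, at 3.6 to 93.63 normalized counts, and mesothelial markers summed to at most 23.4. Fat differed more, with adipocyte markers at 1045 to 4182 in saline-infused and 2364 to 24190 in Ang II-treated IKKβ-/- mice. In the IKKβ+/+ groups they summed to 896 to 8498 and 2601 to 6255. Brown adipocyte markers reached 1884 in mouse X2384 (IKKβ-/-, Ang II). Nerve and Schwann cell markers reached 7203 in mouse X2356 (IKKβ+/+, Ang II). The part of these tissues in the values of the 10 genes was not tested. Mouse X2406 (IKKβ-/-, saline) and mouse X2385 (IKKβ-/-, Ang II) stood apart with 11.7% and 10.3% of their normalized counts on the mitochondrial transcript mt-Co1, against 1.82% to 7.43% in the other mice. The numbers of the mice (X2350 and so on, as labelled) came in blocks by group and no batch was stated, so that a batch and a group cannot be told apart. That the mice of a group are separate animals is given by their numbers.

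Hspa1a and Hspa1b encode the stress-inducible cytosolic HSP70. Hspa1a (ENSMUSG00000091971.3, chr17:34969190-34972156, minus strand) and Hspa1b (ENSMUSG00000090877.3, chr17:34956436-34959238, minus strand) are near-identical copies (positions of genes are in GRCm38, and values within a group are given in the order of the mouse numbers). Of the 84-base windows of the Hspa1a transcript, 50.7% also occur in Hspa1b, so the split of reads between the copies is uncertain. Gm20481 overlaps Hspa1a by 2225 bases on the opposite strand. In saline-infused IKKβ-/- mice Hspa1a had 9932, 9007, 733 and 7445 normalized counts (mice X2401, X2403, X2406 and X2409), and Hspa1b had 13733, 13102, 948 and 8541. In Ang II-treated IKKβ-/- mice Hspa1a had 349, 293, 322, 161 and 93, and Hspa1b had 389, 405, 492, 260 and 224. Every Ang II-treated IKKβ-/- mouse lay below every saline-infused one for both copies, and mouse X2406 was the lowest of its group by a wide step.

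In IKKβ+/+ mice the copies were low in most animals and high in 1 animal of each treatment. Hspa1a had 445, 850, 3781, 656 and 627 normalized counts with saline and 6738, 391.7, 208, 581 and 756 with Ang II. Hspa1b had 403, 1011, 5326, 867 and 627 with saline and 9090, 470, 190, 658 and 727 with Ang II. The high animals were mouse X2373 (saline) and mouse X2350 (Ang II), with 5.89 and 13.9 times the median Hspa1a of the other mice of their group. The ratio of Hspa1b to Hspa1a ran from 0.907 to 2.42 over the 19 mice, with a median of 1.29.

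**Figure D1:**
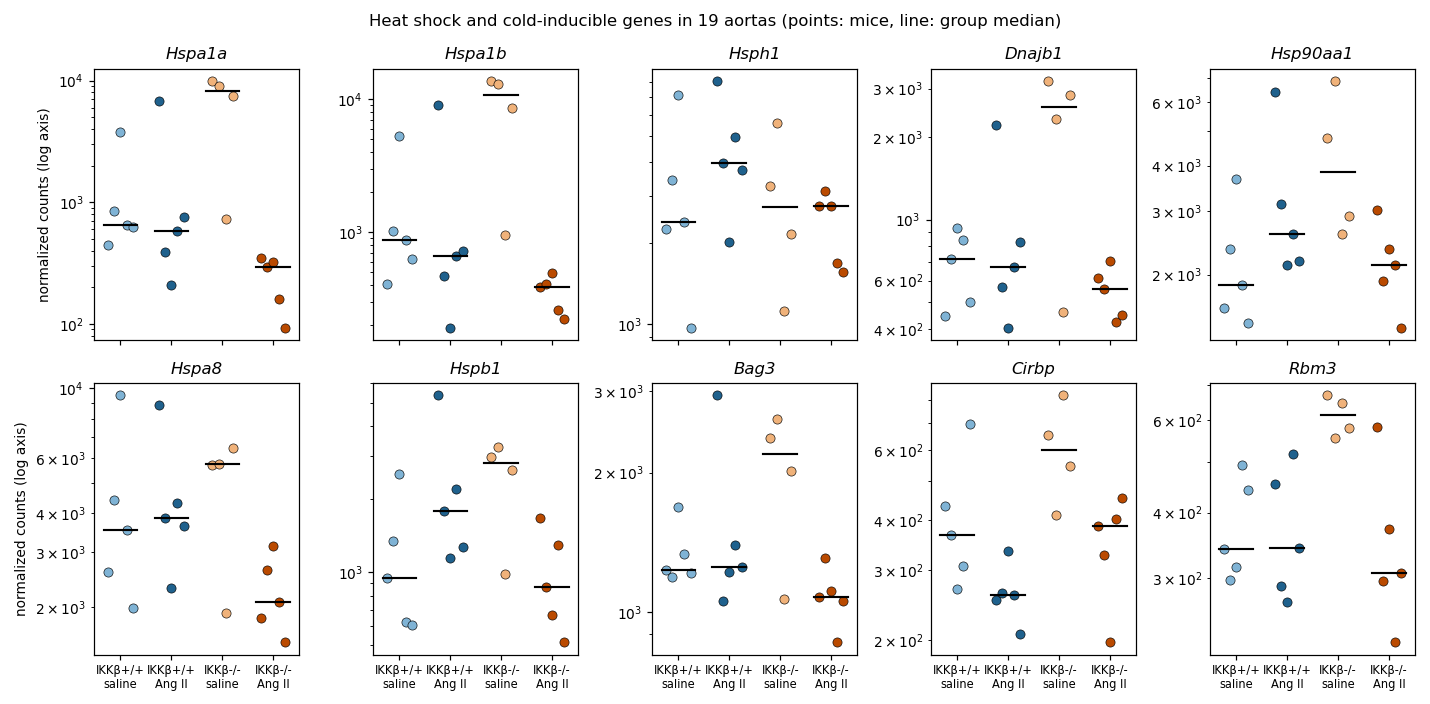
Normalized counts (log axis) of the 10 genes in the 4 groups; each point is a mouse and each line a group median. For Hspa1a, 3 of the 4 saline-infused IKKβ-/- mice lie between 7445 and 9932, the fourth at 733, and the 5 Ang II-treated IKKβ-/- mice between 93 and 349.

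The copies were also summed, since the split of reads between them does not change the sum. How reads that match both copies were counted is not stated, and any left out of both would be missing from it. The sum was 15860 ± 10017 normalized counts (SD, n = 4) in saline-infused and 598 ± 216 (n = 5) in Ang II-treated IKKβ-/- mice, against 2919 ± 3479 (n = 5) and 3962 ± 6646 (n = 5) in the IKKβ+/+ groups. In IKKβ-/- mice the mean log2 sum differed by -4.27 with Ang II, and the exact permutation p (two-sided) was 0.0159, the smallest that 4 against 5 mice allow. With saline it was 2.49 higher in IKKβ-/- mice (exact permutation p = 0.0476, and 0.0357 to 0.107 when single mice were left out). With Ang II it differed by -1.495 in IKKβ-/- mice (exact permutation p = 0.0952, and 0.0159 to 0.1905 when single mice were left out). In IKKβ+/+ mice it differed by -0.29 with Ang II (exact permutation p = 0.738, and 0.159 to 0.968 when single mice were left out). Over these 4 comparisons no further adjustment was made, and the genes were selected on these mice. In bulk RNA, fewer cells of a type and less RNA per cell cannot be told apart.

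Ang II against saline in IKKβ-/- mice asks what the infusion changes where the kinase is deleted in smooth muscle. In the fit across all genes (limma with Benjamini-Hochberg adjustment; a gene passed with adjusted p below 0.1 and more than 1.2-fold change), 5 of the 10 genes fell and none rose. Over all genes tested 5.29% passed, and 2.69% passed with a lower value in Ang II-treated mice. The 5 genes were Hspa1a, 21.5-fold lower (log2 fold change -4.43 ± 0.86 SE, limma adjusted p = 0.0104), Hspa1b, 18.2-fold lower (-4.18 ± 0.91, adjusted p = 0.0177), Dnajb1, Bag3 and Rbm3. Fold changes are on the log2(value + 1) scale. The median log2 fold change of the 10 genes was -0.98, against -0.0029 over all genes. For 2 of the 10, Hspa1a and Hspa1b, the groups did not overlap, where 2.88% of all genes were lower without overlap. DESeq2 and array quality weights each called 7 of the 10, where they called 7.85% and 5.91% of all genes. Only the Hspa1a and Hspa1b calls held when each of the 9 mice was left out in turn. The count of 5 became 2 without mouse X2401 or mouse X2385, 3 without mouse X2409 and 7 without mouse X2380. Without both mice of high mt-Co1 share it was 4, where 1.99% of all genes passed and Rbm3 was lost (limma adjusted p = 0.241).

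Dnajb1 (ENSMUSG00000005483.10, chr8:83608193-83612653, plus strand) encodes the J-domain protein that hands clients to HSP70. It had 3197, 2319, 463 and 2842 normalized counts in saline-infused IKKβ-/- mice and 613, 558, 708, 424 and 449 in Ang II-treated ones. It thus stood high in the same 3 saline-infused mice as Hspa1a, and the fourth lay within the Ang II-treated group. The log2 fold change was -1.71 ± 0.47 (limma adjusted p = 0.0561), and the call was lost without mouse X2385, X2386, X2401, X2403 or X2409, at adjusted p up to 0.171. In IKKβ+/+ mice Dnajb1 had 447 to 930 normalized counts with saline and 404 to 831 with Ang II, apart from 2219 in mouse X2350. Mouse X2373, high for Hspa1a, had 930, the highest of its group by a small step over 844.

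Hsph1 (ENSMUSG00000029657.15, chr5:149614287-149636376, minus strand) encodes HSP110, a nucleotide exchange factor for HSP70. It did not show the pattern of Hspa1a over the groups. It had 3281, 5618, 1117 and 2167 normalized counts in saline-infused and 2749, 3132, 2748, 1691 and 1559 in Ang II-treated IKKβ-/- mice. These groups overlapped, with saline-infused mice X2401 and X2403 above every Ang II-treated mouse and mouse X2406 below every one. In IKKβ+/+ mice it had 2271, 3450, 7156, 2404 and 968 with saline and 8041, 3990, 2021, 4977 and 3734 with Ang II. The highest values of the 19 mice were thus in mice X2350 and X2373, both IKKβ+/+. The log2 difference between saline-infused IKKβ-/- and IKKβ+/+ mice was -0.04 ± 0.48 (limma adjusted p = 0.978).

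Hsp90aa1 and Hspa8 are the inducible cytosolic HSP90 and the constitutive HSP70. Hsp90aa1 (ENSMUSG00000021270.13, chr12:110690605-110702728, minus strand) had 4773, 6859, 2596 and 2904 normalized counts in saline-infused and 3016, 1923, 2360, 2124 and 1424 in Ang II-treated IKKβ-/- mice. Of the Ang II-treated mice, 4 lay below every saline-infused one, and the log2 fold change was -0.91 ± 0.33 (limma adjusted p = 0.150, and 0.0989 without mouse X2380). Hspa8 (ENSMUSG00000015656.17, chr9:40800984-40810087, plus strand, with snoRNA genes inside it) had 5702, 5725, 1917 and 6452 in saline-infused and 1847, 2623, 3128, 2076 and 1546 in Ang II-treated IKKβ-/- mice, a log2 fold change of -1.04 ± 0.42 (limma adjusted p = 0.199). Without mouse X2406 the Hspa8 call was made (-1.45, limma adjusted p = 0.0839). In IKKβ+/+ mice the highest Hspa8 values were 9492 in mouse X2373 and 8858 in mouse X2350, above all IKKβ-/- mice.

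Hspb1 (ENSMUSG00000004951.10, chr5:135887919-135889563, plus strand) encodes HSP27, a small heat shock protein that also binds actin filaments. It had 2978, 3283, 980 and 2644 normalized counts in saline-infused and 1668, 870, 668, 1294 and 513 in Ang II-treated IKKβ-/- mice. Mouse X2406 again lay among the Ang II-treated mice, and the log2 fold change was -1.29 ± 0.48 (limma adjusted p = 0.156). It passed without mouse X2380 (limma adjusted p = 0.0925) or mouse X2406 (adjusted p = 0.0906). In IKKβ+/+ mice the sign was the other way, with 607 to 2529 with saline and 1139 to 5362 with Ang II (0.93 ± 0.45, limma adjusted p = 0.253).

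Bag3 (ENSMUSG00000030847.8, chr7:128523616-128546981, plus strand), overlapped on its own strand by the unnamed transcript 2610306O10Rik, varied less than the chaperones. It had 2381, 2616, 1070 and 2015 normalized counts in saline-infused and 1082, 1312, 1112, 862 and 1057 in Ang II-treated IKKβ-/- mice. The same 3 saline-infused mice stood above all Ang II-treated ones. The log2 fold change was -0.83 ± 0.26 (limma adjusted p = 0.0862), and the call was lost without any of mice X2384, X2385, X2386, X2401, X2403 and X2409, at adjusted p up to 0.217.

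The cold-inducible genes divided the mice in another way. Rbm3 (ENSMUSG00000031167.16, chrX:8138975-8145880, minus strand, overlapped by Rbm3os on the other strand) had 669, 555, 647 and 580 normalized counts in saline-infused IKKβ-/- mice, mouse X2406 included. Ang II-treated IKKβ-/- mice had 582, 297, 372, 226 and 307, so that only mouse X2380 reached the saline-infused range. The log2 fold change was -0.85 ± 0.23 (limma adjusted p = 0.0523), and the call was lost without mouse X2385, X2401 or X2406, at adjusted p up to 0.133. In IKKβ+/+ mice Rbm3 had 341, 298, 315, 493 and 442 with saline and 453, 289, 270, 516 and 342 with Ang II, and the 2 groups overlapped throughout.

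Cirbp (ENSMUSG00000045193.13, chr10:80165985-80172786, plus strand) had 654, 413, 822 and 546 normalized counts in saline-infused and 386, 326, 198, 401 and 454 in Ang II-treated IKKβ-/- mice. Of the Ang II-treated mice, 4 lay below every saline-infused one, and the log2 fold change was -0.79 ± 0.26 (limma adjusted p = 0.108). It passed without mouse X2386 (limma adjusted p = 0.0947) or mouse X2403 (adjusted p = 0.0787). In IKKβ+/+ mice it had 433, 367, 269, 307 and 697 with saline and 253, 263, 335, 259 and 208 with Ang II (-0.58 ± 0.25, limma adjusted p = 0.182). The highest Cirbp value of the 19 mice was in mouse X2406, the saline-infused IKKβ-/- mouse with low heat shock transcripts, and the next was in mouse X2378, which had the lowest Hsph1.

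**Figure D2:**
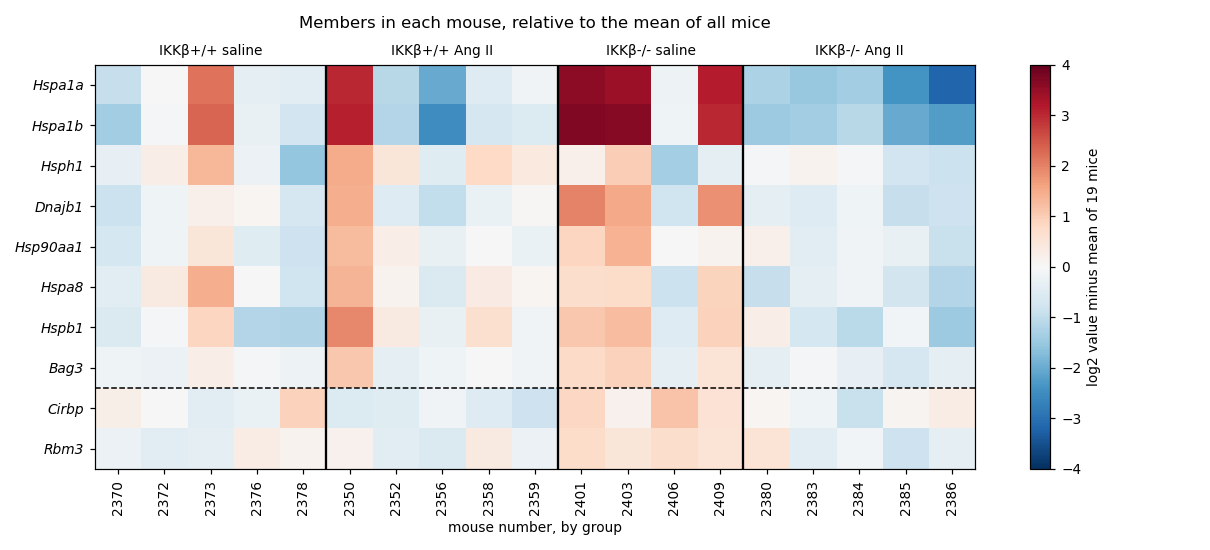
Log2 value of each gene (rows) in each mouse (columns, by group), minus the mean of that gene over the 19 mice, in colour from -4 to 4. Mice X2401, X2403 and X2409 are red for Hspa1a, Hspa1b and Dnajb1, as is mouse X2350, while mouse X2406 lies below the mean for all 8 heat shock genes and is reddest of all mice for Cirbp.

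IKKβ-/- against IKKβ+/+ mice with saline asks what the deletion changes without Ang II, and it shares the saline-infused IKKβ-/- mice with the comparison above. Of the 10 genes 1 rose, Rbm3 (log2 fold change 0.72 ± 0.23, limma adjusted p = 0.0988). Over all genes tested 5.47% passed, and 3.4% passed with a higher value in IKKβ-/- mice. The 4 IKKβ-/- mice had 555 to 669 normalized counts of Rbm3 and the 5 IKKβ+/+ mice 298 to 493, without overlap, where 4.68% of all genes were higher without overlap. The edgeR quasi-likelihood test called Dnajb1 there and not Rbm3. The Rbm3 call lay just under the threshold, and it held without mouse X2409 but was lost without any other of these 9 mice, at adjusted p up to 0.254. Hspa1a and Hspa1b had log2 fold changes of 2.38 ± 0.86 (limma adjusted p = 0.136) and 2.58 ± 0.91 (adjusted p = 0.129), with 3 of the 4 IKKβ-/- mice above every IKKβ+/+ mouse. Dnajb1 had 1.42 ± 0.47 (limma adjusted p = 0.111), also with 3 of 4 mice above every IKKβ+/+ mouse, and passed without mouse X2406 (2.06, adjusted p = 0.062).

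Ang II against saline in IKKβ+/+ mice asks for the response where the kinase gene is intact. None of the 10 genes passed with limma, where 8.66% of all genes did. Of the 10, 1 had an unadjusted p under 0.05 (Cirbp), where 3018 of 14845 genes did. DESeq2 on the recovered reads and array quality weights each called 1, Cirbp, where they called 12.7% and 14% of all genes. The log2 fold changes ran from -0.58 (Cirbp) to 0.93 (Hspb1), with a median of 0.14, and 6 of the 10 were above 0. For Hspa1a it was -0.26 ± 0.81 (limma adjusted p = 0.900), and it became -1.05 without mouse X2350 and 0.26 without mouse X2373.

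With Ang II, IKKβ-/- and IKKβ+/+ mice were compared to see what the deletion changes under the infusion. None of the 10 genes passed with limma, where 0.128% of all genes did. Of the 10, 3 had an unadjusted p under 0.05, where 2118 of 14845 genes did. Those 3 were Hspa1a (-1.78 ± 0.81), Hspa8 (-0.93 ± 0.40) and Hspb1 (-1.12 ± 0.45). The edgeR quasi-likelihood test called 0, where it called 0.108% of all genes, and DESeq2 called 1, Hspa1a, where it called 3.58%. Of the 10 log2 fold changes 9 were below 0, with a median of -0.69, and Cirbp was the exception (0.38 ± 0.25).

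The difference between the 2 Ang II effects was tested as an interaction. None of the 10 genes passed with limma, as for all genes (0%), and 7 of the 10 had an unadjusted p under 0.05, where 1654 of 14845 genes did. All 10 estimates lay below 0, from -4.17 ± 1.18 in Hspa1a (limma adjusted p = 0.247) to -0.21 ± 0.36 in Cirbp (adjusted p = 0.841), so a difference in the response of these genes between genotypes was not shown by limma. With DESeq2 5 of the 10 passed (Hspa1a, Hspa1b, Dnajb1, Hsp90aa1 and Bag3), where 1.88% of all genes did, and with the edgeR quasi-likelihood test 0, where 0.0202% did.

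**Figure D3:**
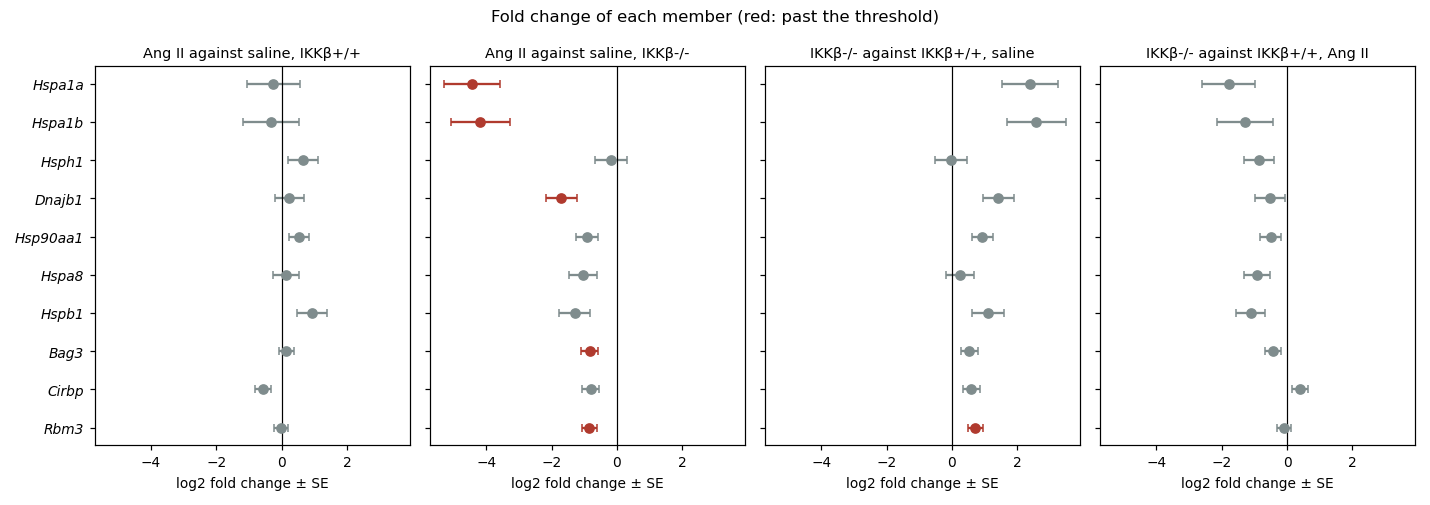
Log2 fold change ± SE (horizontal axis) of each gene in the 4 pairwise comparisons, from the fit over all genes, with genes past the threshold in red. Red marks appear for 5 genes in Ang II-treated against saline-infused IKKβ-/- mice, all below 0, and for Rbm3 in saline-infused IKKβ-/- against IKKβ+/+ mice.

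Levels were also set per kilobase, with the length taken as all annotated exons of a gene joined (7.266 kb for Hsph1 and 4.698 kb for Rbm3). The transcripts present can be shorter than that, and reads shared by Hspa1a and Hspa1b are split uncertainly. The order between genes is therefore approximate. In saline-infused IKKβ+/+ mice the medians ran from 918 normalized counts per kb for Hspb1 and 818 for Hspa8 down to 141 for Cirbp and 72.7 for Rbm3, with Hspa1a at 221. In saline-infused IKKβ-/- mice Hspa1b (3861) and Hspa1a (2773) came first, ahead of Hspb1 (2727) and Hspa8 (1328), and in Ang II-treated IKKβ-/- mice they came in places 8 and 9 of 10 (139 and 98.7). In each group neighbours in this order overlapped between mice, save for Cirbp and Rbm3 in saline-infused IKKβ-/- mice.

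The spread between mice of one group was wide for these genes. The within-group SD of the log2 value was 1.47 for Hspa1a and 1.55 for Hspa1b, above that of 99.7% and 99.8% of the 10071 genes with a mean of at least 100 normalized counts. It was 0.82 for Hsph1, 0.81 for Dnajb1 and Hspb1, 0.71 for Hspa8 and 0.56 for Hsp90aa1, and from 0.38 to 0.43 for Bag3, Cirbp and Rbm3. After the group means were taken off, the 8 heat shock genes moved together over the 19 mice. Pearson r over their 28 pairs had a median of 0.83 and ran from 0.68 (Dnajb1 with Hsp90aa1) to 0.98 (Hspa1a with Hspa1b). Cirbp went the other way, with r from -0.74 (Hsph1) and -0.72 (Hspa8) to -0.34 (Hspb1), and -0.52 with Hspa1a. Rbm3 had r between -0.001 and 0.25 with the heat shock genes. Cirbp and Rbm3 had r of 0.02 with each other. These values describe genes measured in the same libraries and carry no test.

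The tested genes outside the list were searched for the highest r with a member, again after the group means were taken off. The r values named are thus the top of a wide search and carry no test. Those most like Hspa1a over the 19 mice were Rela, a subunit of NF-κB (r = 0.934), Arl4d (0.927) and Gm20481 (0.902). Gm20481, the gene on the opposite strand of Hspa1a, had 0 to 68.6 normalized counts. Rela itself ran only from 726 to 1323. Those most like Hsph1 were Stip1, which joins HSP70 to HSP90 (0.936), Ifrd1 (0.930) and Gadd45b (0.927). Amer1 (0.885), Trim68 and Dgke were most like Cirbp, and Chmp2a (0.827), Uhrf1 and Lig1 were most like Rbm3.

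Other genes of the heat shock system were counted by list. Of all genes tested, 5.29% passed with Ang II in IKKβ-/- mice, 8.66% with Ang II in IKKβ+/+ mice and 5.47% between genotypes with saline. Of 5 heat shock factors and regulators none passed in the Ang II comparisons, and Hsbp1, which binds HSF1, passed with saline (0.30 ± 0.09, limma adjusted p = 0.0928). Of 8 other cytosolic HSP70 and HSP110 genes, Hspa1l (-2.02 ± 0.36, limma adjusted p = 0.00582) and Hspa2 (-0.84 ± 0.20, adjusted p = 0.0243) fell with Ang II in IKKβ-/- mice. Hspa1l had 327 ± 124 normalized counts (SD, n = 4) with saline and 80.7 ± 30.7 (n = 5) with Ang II, and 5.27% of the 84-base windows of Hspa1a also occur in it. Of 15 other J-domain genes, Dnajb4 (9709 ± 3597 with saline, 2982 ± 1165 with Ang II; -1.69 ± 0.37, limma adjusted p = 0.0189) and Dnajb5 (-1.25 ± 0.27, adjusted p = 0.018) fell in the same comparison. Of 24 other HSF1-responsive genes 3 fell there, Dnajb4 and Ubb among them, and none rose. The median log2 fold change of that list was -0.118, and those of the 14 HSP90 co-chaperones and of the 14 chaperonin and prefoldin genes were -0.102 and -0.029, with no gene past the threshold in either.

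In Ang II-treated against saline-infused IKKβ+/+ mice, 4 of 6 other small heat shock genes rose, among them Cryab (4980 ± 2134 against 2418 ± 470 normalized counts, n = 5 each; 0.98 ± 0.21, limma adjusted p = 0.0137), Hspb6 (0.62 ± 0.13, adjusted p = 0.015) and Hspb7 (0.97 ± 0.22, adjusted p = 0.0199). Cryab also stands in the list of HSF1-responsive genes. Muscle markers were higher in the same mice, with sums of 331800 to 440400 normalized counts with saline and 459800 to 635000 with Ang II for 7 smooth muscle markers, and of 137 to 256 and 329 to 702 for 7 striated muscle markers, both without overlap. Their part in the values of the small heat shock genes was not tested. None of the 6 genes passed with Ang II in IKKβ-/- mice, where Hspb7 was already higher with saline than in IKKβ+/+ mice (7569 ± 1253, n = 4, against 4166 ± 923, n = 5, limma adjusted p = 0.0633). The difference between the Ang II effects passed in 0 of the 6. Cct7 and Cct2, subunits of the chaperonin that folds actin and tubulin, rose with 2 prefoldin or chaperonin genes of 14, and Bag1, an HSP70 exchange factor, rose among 7 (0.39 ± 0.09, limma adjusted p = 0.018). Hspa12b, an HSP70 relative of endothelial cells, fell (-0.96 ± 0.23, limma adjusted p = 0.0262), while the 6 endothelial markers summed to 11280 to 22610 normalized counts with Ang II and 20460 to 35440 with saline. The part of this in the Hspa12b value was not tested. Of 17 splicing kinases and SR proteins and 10 hnRNP-like genes, 1 each fell with Ang II in IKKβ-/- mice, Srsf4 and Hnrnpa0, and with saline Tra2b and Hnrnpdl were higher in IKKβ-/- mice. In both comparisons these were 5.88% and 10% of the lists, where 5.29% and 5.47% of all genes passed. Single calls near that share say little about the lists. Mitochondrial chaperones and proteases had 0 of 11 genes past the threshold in each of these 3 comparisons.

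**Figure D4:**
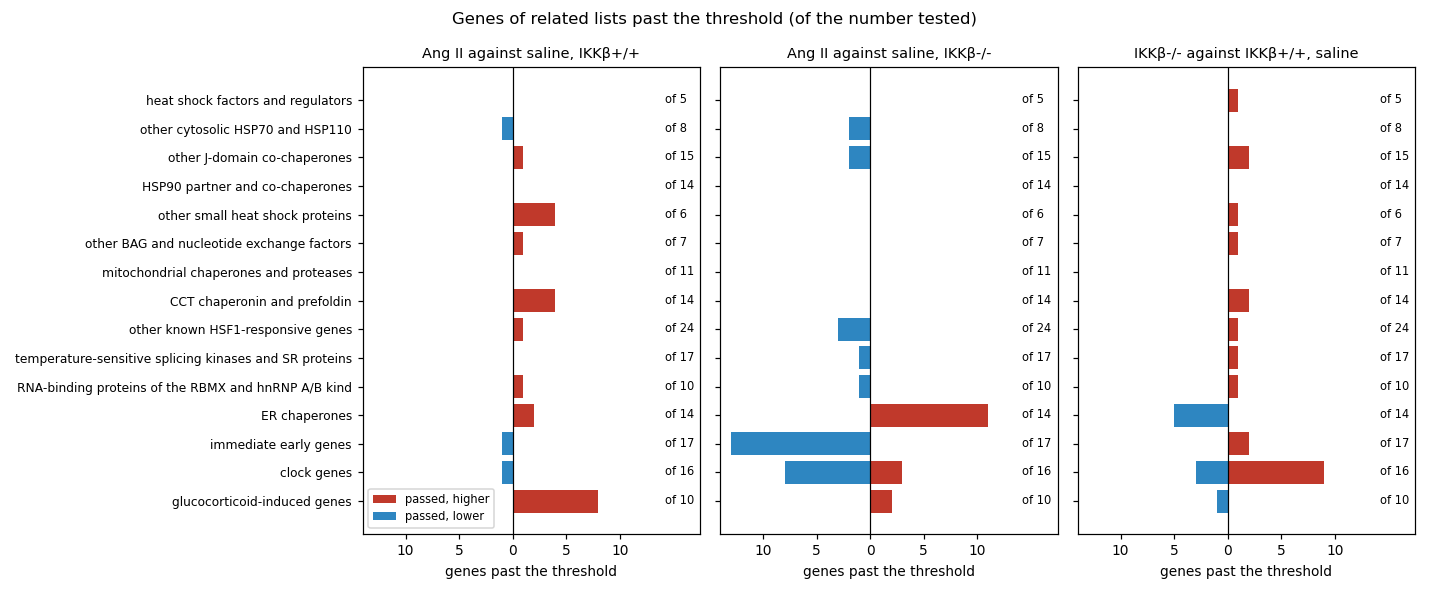
Number of genes past the threshold in each list of related genes (bars to the right higher, to the left lower; the number tested stands at the right edge) in 3 comparisons. In Ang II-treated against saline-infused IKKβ-/- mice 13 of 17 immediate early genes are lower and 11 of 14 ER chaperones higher, beside 2 of 15 J-domain genes lower.

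Several other sets moved alongside Hspa1a between the IKKβ-/- groups. Immediate early genes summed to 30580 to 66040 normalized counts in saline-infused and 12620 to 14990 in Ang II-treated IKKβ-/- mice, and 13 of 17 fell, led by Jun, Btg2 and Atf3 (-4.18 ± 0.76, limma adjusted p = 0.00793). Mice X2350 and X2373, high for Hspa1a, had the highest sums of the immediate early genes in their groups, 43480 and 45710. Among saline-infused IKKβ-/- mice, X2406 (30580) and X2403 (30790) had nearly the same sum, though their Hspa1a was 733 and 9007. Clock genes differed too, with 8 of 16 lower and 3 higher with Ang II in IKKβ-/- mice. Between the saline-infused groups, 9 of the 16 were higher and 3 lower in IKKβ-/- mice. With Ang II in IKKβ+/+ mice 1 of the 16 was lower. The clock genes summed to 19350 to 26840 normalized counts in saline-infused IKKβ-/- mice and 8710 to 19960 in saline-infused IKKβ+/+ mice. Chaperones of the endoplasmic reticulum went the other way from Hspa1a with Ang II in IKKβ-/- mice, with 11 of 14 higher. Glucocorticoid-induced genes rose in 2 of 10 there and in 8 of 10 in IKKβ+/+ mice. The part of these sets in the values of the heat shock and cold-inducible genes was not tested.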

How the data were processed

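Poly(A) RNA of the SRA of 19 mice was sequenced as stranded single reads of 84 bases. Per the labels and the methods of the study, the authors trimmed reads with Trimmomatic 0.35, aligned them with STAR 2.7.1a to GRCm38 and normalized counts with DESeq2 1.30.1. The deposited values are a signal, gene read counts divided by a size factor, and 100% of them gave whole reads within 0.05. The strand setting of the counting is not given in the sources used here. Groups came from the sample titles. Genes reaching 10 normalized counts in 4 or more mice were kept (14845 of 20408), and log2(value + 1) was fitted with limma 3.58.1 in R 4.3.3 over the 4 groups with a mean-variance trend, called at adjusted p below 0.1 and a fold above 1.2. Recovered reads were tested with edgeR 4.0.16 and DESeq2 1.42.0 as alternatives. The fits were tested on simulated data. Named genes are the 10 members, up to 3 genes of each list past the threshold by smallest adjusted p, and the 3 genes most alike in pattern. The members and lists were chosen with earlier results of these data known. Precision is limited by 4 to 5 mice a group, and mice differed far beyond counting error (lowest chi-square per gene 19.5 over 36 pairs).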

Additional observations from a re-analysis of the deposited data

Results flagged for a closer look

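In 9 of the 40 sets of a gene and a group, 1 mouse lay far from the others of its group by the 95% limit of Dixon's test on normalized counts. Normally distributed values pass this limit in about 1 in 20 sets, but normalized counts need not be so distributed. Mouse X2350 (IKKβ+/+, Ang II) stood above its group with 6738 normalized counts of Hspa1a, 9090 of Hspa1b, 2219 of Dnajb1, 6381 of Hsp90aa1, 5362 of Hspb1 and 2936 of Bag3. Mouse X2373 (IKKβ+/+, saline) stood above its group with 3781 of Hspa1a and 5326 of Hspa1b. Mouse X2406 (IKKβ-/-, saline) stood below its group with 1917 of Hspa8. The result depended on the scale. On log2 values, a scale added after seeing the data, 4 sets passed the limit, X2406 for Hspa1a (733), Dnajb1 (463) and Hspa8 and X2350 for Bag3. These sets are not independent, since the 8 heat shock genes moved together between mice and come from the same libraries.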

How the results depend on the processing

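The falls of Hspa1a and Hspa1b with Ang II in IKKβ-/- mice passed in all runs that left out 1 mouse (log2 fold change -5.32 to -4.07 and -5.08 to -3.80). The other counts depended on settings, and the cause was not tested. For Ang II in IKKβ-/- mice, 5 genes became 2 at an adjusted p below 0.05 and 2 with only the groups compared. The share of all genes that passed fell as well, from 5.29% to 2.78% and 1.99%. When mice were left out, 2 to 7 of the 10 genes passed. For IKKβ-/- against IKKβ+/+ with saline, 1 became 0 at 0.05, 0 without a filter and 0 with TMM (0.916%, 3.16% and 5.38% of all genes). It became 3 with only the groups compared, 8 with array weights and 4 with DESeq2 (9.57%, 12.8% and 9.69% of all genes). When mice were left out the count was 0 to 2. Without mice X2385 and X2406, a choice made after seeing the data, it was 1, but Dnajb1 in place of Rbm3 (0.128% of all genes). For Ang II in IKKβ+/+ mice, 0 became 1 with array weights and 1 with DESeq2. For IKKβ-/- against IKKβ+/+ with Ang II, 0 became 1 with DESeq2. For the difference, 0 became 2 with array weights (0.512% of all genes), 5 with DESeq2 and 0 to 1 when mice were left out. The median r of 0.828 was 0.796 as Spearman rho and 0.788 to 0.848 when mice were left out.

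Signs turned as follows. For Ang II in IKKβ+/+ mice, Hspa1a was 0.447 with edgeR, 0.45 with DESeq2 and -1.045 to 0.262 when mice were left out, and Hspa1b 0.435, 0.437 and -1.184 to 0.27. Their sum ran from -1.121 to 0.266, Dnajb1 from -0.145 to 0.469, Hspa8 from -0.137 to 0.47, Bag3 from -0.105 to 0.263 (-0.007 with array weights) and Rbm3 from -0.159 to 0.074. Hsph1 ran from -0.581 to 0.196 for Ang II in IKKβ-/- mice. With saline it ran from -0.409 to 0.368, with 0.126 under array weights and 0.368 without mice X2385 and X2406. Rbm3 with Ang II ran from -0.29 to 0.049, and was 0.049 without those 2 mice. The sum of Hspa1a and Hspa1b with saline ran from 2.115 to 3.387 and with Ang II from -1.993 to -0.665. No paired analysis was possible because every mouse has a number of its own. Depth does not limit these genes, whose lowest value is 93 normalized counts.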
